A study of Mus musculus with 9 samples.

Results

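The receptors described here are 8 chemoattractant receptors of phagocytes, Fpr1, Fpr2, C5ar1, C3ar1, Ptafr, Ltb4r1, Ccr1 and Cxcr4, among the 40993 genes measured in BV2 cells. They were chosen by gene name with the FPKM values and fold changes of all 3 comparisons in these libraries known, and the study itself had picked Fpr1 and Ccr1 from these libraries. Their fold changes and adjusted p-values are therefore given as a description of these libraries and not as independent evidence. BV2 cells are immortalized microglia of the mouse, and MNPs@SiO2(RITC) are magnetic particles with a cobalt ferrite core and a silica shell that holds the dye rhodamine B isothiocyanate. The 9 RNA libraries comprised 3 from non-treated control cells, 3 from cells given a low dose of 10 µg/ml MNPs@SiO2(RITC) for 12 h, and 3 from cells given a high dose of 100 µg/ml for 12 h. The labels write these doses as 0.01 and 0.1 µg/µl. All came from the same cell line in culture, and no source used here says that the 3 libraries of a group came from separate cultures, so p-values measure the spread between these libraries, which may be technical. In cultures sequenced in bulk, fewer cells that express a receptor and less RNA per cell cannot be told apart.

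Chemoattractant receptors are proteins of the cell surface that cross the membrane several times and pass their signal to heterotrimeric G proteins, mostly of the Gi class. Phagocytes use them to move up gradients of bacterial or mitochondrial formyl peptides, complement fragments, lipid mediators and chemokines, and the same signals prime the burst of the NADPH oxidase. After binding, the receptors are phosphorylated by G protein-coupled receptor kinases and held by arrestins, which ends the signal.

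Values are FPKM (fragments divided by the length of the transcript and by the mapped fragments of the library), as deposited. FPKM is per length, so that levels of different genes can be compared. Depth is not part of an FPKM table. It was approximated from the spacing of low values at 12.0 to 13.7 M (mega) fragments per control library, 12.8 to 13.9 M at 10 µg/ml and 11.9 to 15.1 M at 100 µg/ml, and every fragment number below shares this approximation. A gene was tested where its mean over the 9 libraries was at least 1 FPKM, which 11161 genes reached. Of the 8 receptors, 5 were tested (Fpr1, C5ar1, C3ar1, Ptafr and Cxcr4), and Fpr2, Ltb4r1 and Ccr1 lay below that limit. Fpr1 passed it only through its level in control cells and at 10 µg/ml, since its mean at 100 µg/ml was under 1 FPKM. Fold changes are log2 differences of FPKM + 1 with a standard error (SE), and adjusted p-values are from limma with Benjamini-Hochberg adjustment over the 11161 genes, two-sided, with 0.05 as the threshold. The pseudocount of 1 makes the fold change of a low gene smaller than the ratio of its FPKM.

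The sequences upstream of 4 of the genes are shown because these receptors carry the main contrasts below: Fpr1 and C3ar1 were called lower at 100 µg/ml, Fpr2 is the neighbour of Fpr1, and Ccr1 had its highest libraries at 100 µg/ml. Each is the 250 bases before the RefSeq start of the gene (GRCm38.p6), 5′ to 3′ on the strand of the gene, with the letters GAGGAA or their reverse complement TTCCTC in capitals. GAGGAA holds the GGAA core that ETS factors recognize, among them Spi1, a master regulator of myeloid cells.
Fpr1, chr17:17883940-17884189, minus strand: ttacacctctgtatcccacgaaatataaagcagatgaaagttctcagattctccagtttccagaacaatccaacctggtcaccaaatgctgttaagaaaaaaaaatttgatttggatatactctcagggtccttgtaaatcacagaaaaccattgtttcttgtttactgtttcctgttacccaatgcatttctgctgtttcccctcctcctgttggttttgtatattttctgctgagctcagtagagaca
Fpr2, chr17:17887574-17887823, plus strand: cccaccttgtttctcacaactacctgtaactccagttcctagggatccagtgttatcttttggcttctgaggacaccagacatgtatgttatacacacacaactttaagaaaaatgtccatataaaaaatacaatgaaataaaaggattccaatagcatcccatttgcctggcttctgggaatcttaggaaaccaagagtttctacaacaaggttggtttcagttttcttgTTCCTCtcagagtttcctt
C3ar1, chr6:122856158-122856407, minus strand: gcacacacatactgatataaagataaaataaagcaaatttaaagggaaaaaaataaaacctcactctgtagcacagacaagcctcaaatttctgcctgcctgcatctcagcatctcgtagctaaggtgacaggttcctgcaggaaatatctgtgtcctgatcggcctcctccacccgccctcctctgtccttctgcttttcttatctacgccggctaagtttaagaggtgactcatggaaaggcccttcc
Ccr1, chr9:123968693-123968942, minus strand: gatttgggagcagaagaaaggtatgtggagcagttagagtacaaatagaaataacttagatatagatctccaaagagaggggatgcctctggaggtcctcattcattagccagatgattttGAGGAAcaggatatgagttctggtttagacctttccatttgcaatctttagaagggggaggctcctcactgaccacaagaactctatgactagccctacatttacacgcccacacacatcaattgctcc
The letters were found in the windows of 4 of the 8 receptors, Fpr2, Ptafr, Ltb4r1 and Ccr1, against 23.3% of 32851 promoter windows of the same length in the RefSeq table, both strands searched. The windows of Fpr1, C3ar1, C5ar1 and Cxcr4 did not hold these letters. Of the 4 genes that hold them only Ptafr was tested, so no link to the calls is read. The shorter core GGAA, or its reverse complement TTCC, occurs in all 4 windows printed, those of Fpr1 and C3ar1 included. A match of letters is a description of the window and not a binding site.

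Fpr1 (ENSMUSG00000045551, chr17:17876471-17883940, minus strand, a protein-coding gene of 2 exons) encodes the receptor for N-formyl peptides, which bacteria and damaged mitochondria release. It was at 1.91, 2.17 and 2.49 FPKM in the control libraries, at 1.95, 1.37 and 1.45 FPKM at 10 µg/ml, and at 0.335, 0.599 and 0.694 FPKM at 100 µg/ml. The 3 libraries at 100 µg/ml were below all 6 others, while the libraries at 10 µg/ml overlapped with control. The means were 2.19 ± 0.293, 1.59 ± 0.315 and 0.543 ± 0.186 FPKM (SD, n = 3 each), so that the mean at 100 µg/ml was 75.2% below control and 65.8% below 10 µg/ml. Against control, the log2 change at 100 µg/ml was -1.05 (SE 0.15, 95% interval -1.39 to -0.72, adjusted p = 0.0131), and the log2 ratio of the FPKM means was -2.01. It was the 40th lowest log2 change among the 11161 genes. Against 10 µg/ml the log2 change was -0.75 (SE 0.15, adjusted p = 0.0666), which missed the threshold, and at 10 µg/ml against control it was -0.31 (SE 0.15, adjusted p = 1). The estimated number of Fpr1 fragments averaged 38.2 in a control library, 28.4 at 10 µg/ml and 9.4 at 100 µg/ml, so counting error is part of its spread. Without control library 2, the adjusted p at 100 µg/ml against control was 0.0583. With only the 6 libraries of this comparison fitted, the limma adjusted p was 0.0561.

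Fpr2 (ENSMUSG00000052270, chr17:17887824-17893952, plus strand) lies 3883 bases from Fpr1, with the starts of the genes facing each other, and encodes a receptor for formyl peptides, serum amyloid A and annexin A1. It was at 0.603, 1.09 and 0.924 FPKM in control cells, 0.823, 0.631 and 0.619 FPKM at 10 µg/ml, and 0.364, 0.628 and 0.374 FPKM at 100 µg/ml. Library 2 at 100 µg/ml lay above library 1 of control, so the groups overlapped. The means were 0.872 ± 0.248, 0.691 ± 0.115 and 0.455 ± 0.150 FPKM (SD, n = 3 each), and that at 100 µg/ml was 47.8% below control. Fpr2 was under the limit for testing. With no filter, its log2 change at 100 µg/ml against control was -0.36 (limma adjusted p = 0.216). Its estimated fragments averaged 13.1, 10.6 and 6.8 per library in control cells, at 10 µg/ml and at 100 µg/ml. Fpr3 overlaps Fpr2 on the same strand, so reads of the overlap may be split between them. Fpr3 reached at most 0.187 FPKM in a library, and the other 4 rows of the family, Fpr-rs3, Fpr-rs4, Fpr-rs6 and Fpr-rs7, were listed at 0 in all 9 libraries. The nearest tested genes on either side of Fpr1 were Lnpep, 251981 bases away, with a log2 change of -0.21 at 100 µg/ml against control (adjusted p = 0.616), and Gm7535, 27098 bases away, at 0.17 (adjusted p = 0.620). Lnpep was at 18.0 FPKM in library 1 at 100 µg/ml and between 27.2 and 34.3 FPKM in the other 8 libraries.

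C3ar1 and C5ar1 encode the receptors for the complement fragments C3a and C5a, and were the most abundant of the 8 receptors. C3ar1 (ENSMUSG00000040552, chr6:122847138-122856161, minus strand, 2 exons) was at 103, 102 and 98.0 FPKM in control cells, at 96.0, 92.9 and 90.6 FPKM at 10 µg/ml, and at 70.6, 79.7 and 78.8 FPKM at 100 µg/ml. The 3 groups did not overlap at any step, with control highest and 100 µg/ml lowest. The means were 101.3 ± 2.85, 93.2 ± 2.71 and 76.4 ± 5.0 FPKM (SD, n = 3 each). At 100 µg/ml the mean was 24.6% below control, a log2 change of -0.40 (SE 0.06, 95% interval -0.54 to -0.27, adjusted p = 0.0135). At 10 µg/ml the log2 change against control was -0.12 (SE 0.06, adjusted p = 1), and between the doses it was -0.29 (SE 0.06, adjusted p = 0.0744). With a mean of 5706 estimated fragments in a control library, C3ar1 rests on far more reads than Fpr1. The call at 100 µg/ml against control was lost without control library 1 (adjusted p = 0.0661) and without control library 2 (adjusted p = 0.0776). It was also lost with only the 6 libraries of this comparison fitted (limma adjusted p = 0.0760). The difference between the doses passed the threshold without library 1 of 100 µg/ml (adjusted p = 0.0436).

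C5ar1 (ENSMUSG00000049130, chr7:16246743-16259540, minus strand) was at 37.9, 36.6 and 35.9 FPKM in control cells, at 34.4, 43.0 and 38.8 FPKM at 10 µg/ml, and at 39.9, 40.9 and 40.4 FPKM at 100 µg/ml. The libraries at 100 µg/ml lay above all 3 control libraries, and those at 10 µg/ml spanned both groups. The means were 36.8 ± 0.988, 38.7 ± 4.27 and 40.4 ± 0.512 FPKM (SD, n = 3 each). The log2 change at 100 µg/ml against control was 0.13 (SE 0.07, 95% interval -0.04 to 0.30, adjusted p = 0.383), so no change passed the test. Within a library, the ratio of C3ar1 to C5ar1 was 2.75 ± 0.0393 in control cells, 2.43 ± 0.324 at 10 µg/ml and 1.89 ± 0.103 at 100 µg/ml (SD, n = 3 each). The highest ratio at 100 µg/ml was 1.95 and the lowest in the other 6 libraries 2.16.

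Ptafr and Ltb4r1 encode receptors for lipid mediators, platelet-activating factor and leukotriene B4. Ptafr (ENSMUSG00000056529, chr4:132564067-132582683, plus strand, 2 exons) was at 4.92, 4.88 and 5.80 FPKM in control cells, at 5.37, 4.83 and 5.15 FPKM at 10 µg/ml, and at 4.38, 4.64 and 4.48 FPKM at 100 µg/ml. The libraries at 100 µg/ml were the lowest 3 of the 9, by a small margin. The means were 5.20 ± 0.522, 5.12 ± 0.270 and 4.50 ± 0.132 FPKM (SD, n = 3 each), and the log2 change at 100 µg/ml against control was -0.17 (SE 0.08, 95% interval -0.36 to 0.02, adjusted p = 0.303). Ltb4r1 (ENSMUSG00000046908, chr14:55765962-55768494, plus strand, 2 exons) was at 0.135, 0.0626 and 0.201 FPKM in control cells, at 0.266, 0.126 and 0 FPKM at 10 µg/ml, and at 0, 0.0738 and 0 FPKM at 100 µg/ml. With an estimated mean of 2.4, 2.5 and 0.4 fragments per library in these groups, no difference was detectable at this depth. No fold change is given for Ltb4r1.

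Ccr1 and Cxcr4 are the chemokine receptors among the 8. Ccr1 (ENSMUSG00000025804, chr9:123962126-123968692, minus strand, 2 exons) encodes a receptor for Ccl3, Ccl5 and other CC chemokines. It was at 0.289, 0.386 and 0.483 FPKM in control cells, at 0.330, 0.411 and 0.324 FPKM at 10 µg/ml, and at 0.530, 0.767 and 0.523 FPKM at 100 µg/ml. All 3 libraries at 100 µg/ml lay above the other 6, the closest being 0.523 and 0.483 FPKM. The means were 0.386 ± 0.0969, 0.355 ± 0.0488 and 0.607 ± 0.139 FPKM (SD, n = 3 each), so that the mean at 100 µg/ml was 57.0% above control and 70.7% above 10 µg/ml. Among the 2991 genes with a mean of 0.1 to 1 FPKM, all libraries at 100 µg/ml lay above control in 5.15% and above 10 µg/ml in 4.91%. Ccr1 was under the limit for testing, and with no filter its log2 change was 0.21 against control (limma adjusted p = 0.264) and 0.24 against 10 µg/ml (limma adjusted p = 0.276). It rested on an estimated 14.5, 13.6 and 22.8 fragments per library in control cells, at 10 µg/ml and at 100 µg/ml.

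Cxcr4 (ENSMUSG00000045382, chr1:128588199-128592293, minus strand, 2 exons) encodes the receptor for Cxcl12. Its RNA was at 5.12, 6.03 and 5.13 FPKM in control cells, at 3.89, 4.04 and 4.28 FPKM at 10 µg/ml, and at 4.55, 3.92 and 3.71 FPKM at 100 µg/ml. Every treated library lay below every control library, and the libraries of the low and the high dose overlapped. The means were 5.43 ± 0.522, 4.07 ± 0.195 and 4.06 ± 0.435 FPKM (SD, n = 3 each), and the mean at 100 µg/ml was 25.2% below control. The log2 change against control was -0.34 at 10 µg/ml (SE 0.09, unadjusted p = 0.00580, limma adjusted p = 1) and -0.35 at 100 µg/ml (SE 0.09, limma adjusted p = 0.0974), so neither passed the threshold. Both comparisons share the control libraries and are not independent of each other. The log2 difference between the doses was -0.01 (95% interval -0.22 to 0.21). Without library 1 of 100 µg/ml, the adjusted p of Cxcr4 at 100 µg/ml against control was 0.0458.

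**Figure D1:**
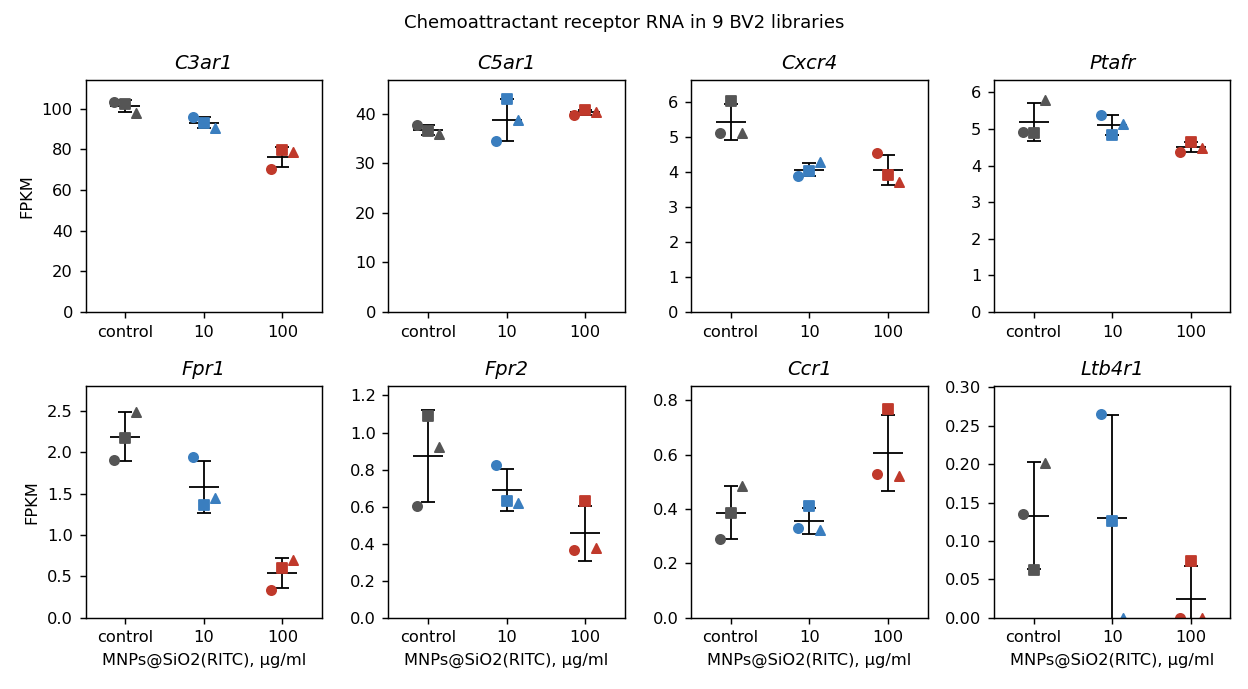
FPKM of the 8 receptors in each library (vertical axes, linear and starting at 0, a scale of its own for each gene) for control cells and for 10 and 100 µg/ml MNPs@SiO2(RITC) (horizontal axes). Circles, squares and triangles are libraries 1, 2 and 3 of a group, the horizontal line is the mean and the bars are 1 SD (n = 3). Fpr1 and C3ar1 are lowest at 100 µg/ml, Ccr1 is highest there, and Cxcr4 is lower than control at both doses.

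Counted over the 8 receptors, 2 of the 5 tested passed the threshold at 100 µg/ml against control, Fpr1 and C3ar1, both lower. Over all genes tested, 2.11% passed in either direction and 1.41% were lower. At 10 µg/ml against control none of the 5 passed, as none of the 11161 genes did (0%). By unadjusted limma p under 0.05, 1 receptor, Cxcr4, and 366 genes were counted there, 3.28% of genes. Between the doses none of the 5 passed either, where 0.851% of genes did, and 2 of them, Fpr1 and C3ar1, had an unadjusted limma p under 0.05 (14.3% of genes). Of the 5 tested, all 5 had no overlap between the libraries of 100 µg/ml and control, 4 lower and C5ar1 higher, where 23.8% of all genes tested did not overlap, 11.4% lower and 12.5% higher. The same count was 2, both lower, at 10 µg/ml against control (4.61% of genes were lower without overlap) and 3, all lower, between the doses (9.99% of genes). The median log2 change of the 5 receptors was -0.35 at 100 µg/ml against control, -0.12 at 10 µg/ml against control and -0.15 between the doses, and the median of all genes tested lay within 0.002 of 0 in each comparison. Because the receptors were chosen with these results known, nothing is read from the difference between their counts and those of all genes.

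**Figure D2:**
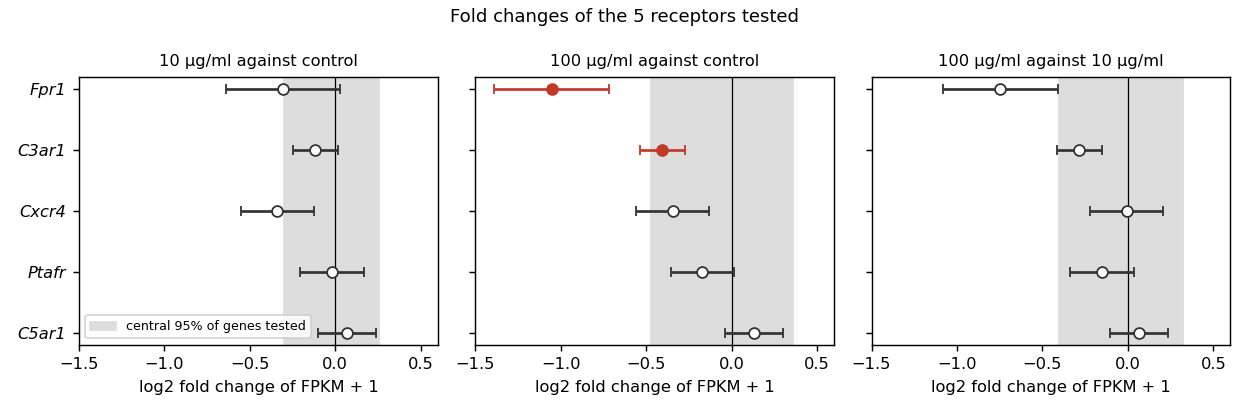
Log2 fold changes of FPKM + 1 (horizontal axes) for the 5 receptors tested, in the 3 comparisons, with 95% intervals from limma. Filled red points have an adjusted p under 0.05 and the grey band holds the central 95% of the 11161 genes tested. Only Fpr1 at -1.05 and C3ar1 at -0.40 are filled, both at 100 µg/ml against control.

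The order of the receptors by level was the same at its top in every group. In control cells C3ar1 and C5ar1 were followed by Cxcr4 and Ptafr, then by Fpr1, Fpr2, Ccr1 and Ltb4r1, and of the neighbours in this order only Cxcr4 and Ptafr overlapped. At 10 µg/ml Ptafr lay above Cxcr4 with no overlap, and the rest kept its order. At 100 µg/ml the lower end changed: Ccr1 (0.607 ± 0.139 FPKM), Fpr1 (0.543 ± 0.186 FPKM) and Fpr2 (0.455 ± 0.150 FPKM) overlapped between neighbours, as did Ptafr and Cxcr4. The ratio of Fpr1 to Ccr1 within a library was 5.80 ± 0.737 in control cells, 4.56 ± 1.29 at 10 µg/ml and 0.914 ± 0.367 at 100 µg/ml (SD, n = 3 each). It ranged from 0.632 to 1.33 at 100 µg/ml and was at least 3.33 in the other libraries. At 100 µg/ml this ratio rests on estimated means of 9.4 Fpr1 and 22.8 Ccr1 fragments per library. The ratio of Fpr1 to Fpr2 was 1.99 to 3.17 in control cells and 0.921 to 1.855 at 100 µg/ml. That of Cxcr4 to Ptafr was 0.884 to 1.24 in control cells and 0.829 to 1.04 at 100 µg/ml, so it overlapped. The FPKM of the 8 receptors summed to 152.3 ± 2.85 in control cells, 143.9 ± 3.08 at 10 µg/ml and 126.9 ± 5.58 at 100 µg/ml (SD, n = 3 each). C3ar1 and C5ar1 made up 89.9 to 92.4% of that sum in every library, so the sum shows little of the other 6.

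**Figure D3:**
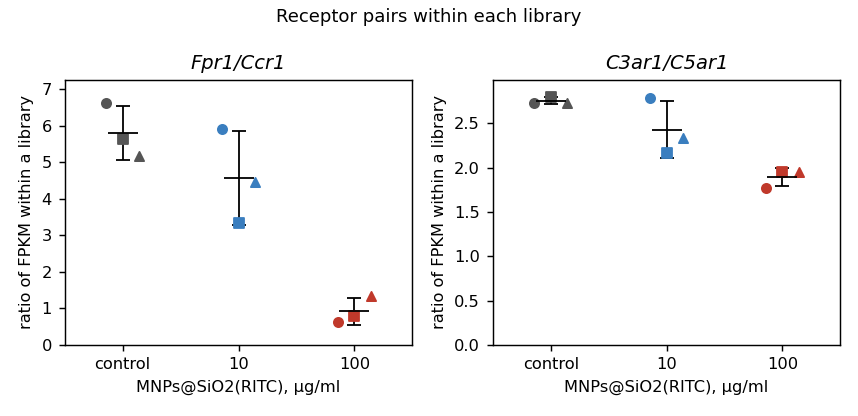
Ratio of Fpr1 to Ccr1 (left) and of C3ar1 to C5ar1 (right) within each library, on linear axes that start at 0. Circles, squares and triangles are libraries 1, 2 and 3, lines are means and bars 1 SD (n = 3). Both ratios are lowest in the 3 libraries at 100 µg/ml. Each pair sets a receptor with a lower mean there than in control cells over one with a higher mean.

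Among the 17211 genes above 0 in control cells, C3ar1 was higher than 94.6%, C5ar1 than 82.5%, Cxcr4 than 48.7%, Ptafr than 48.2% and Fpr1 than 40.4%, with Fpr2, Ccr1 and Ltb4r1 below these. The other chemoattractant receptors were a list of 43 genes, which holds further formyl peptide, complement, chemokine, leukotriene B4, nucleotide, sphingosine phosphate and fatty acid receptors, among others. Of these, 8 were at or above the mean of 1 FPKM, 8 lay between 0.1 and 1 FPKM, 17 lay below 0.1 FPKM and 10 were listed at 0 in all libraries. The highest were S1pr2, a receptor for sphingosine 1-phosphate, with 24.4 FPKM in control cells, and P2ry2, a receptor for extracellular ATP and UTP, with 16.0 FPKM. Over the 9 libraries both lay below C5ar1 and above Ptafr. Of the 8 tested, 1 passed at 100 µg/ml against control, lower, which is 12.5% beside 2.11% of all genes in either direction and 1.41% lower, and none passed at 10 µg/ml. The gene was Gpr183, a receptor for oxysterols, with 3.72, 3.79 and 3.87 FPKM in control cells, 4.04, 3.56 and 4.39 FPKM at 10 µg/ml, and 2.37, 2.48 and 1.98 FPKM at 100 µg/ml. All 3 libraries at 100 µg/ml lay below the other 6. Its log2 change was -0.55 against control (adjusted p = 0.0279) and -0.61 against 10 µg/ml (adjusted p = 0.0326). Both calls were lost with only the 6 libraries of a comparison fitted. The call between the doses was also lost with a block for replicate number.

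**Figure D4:**
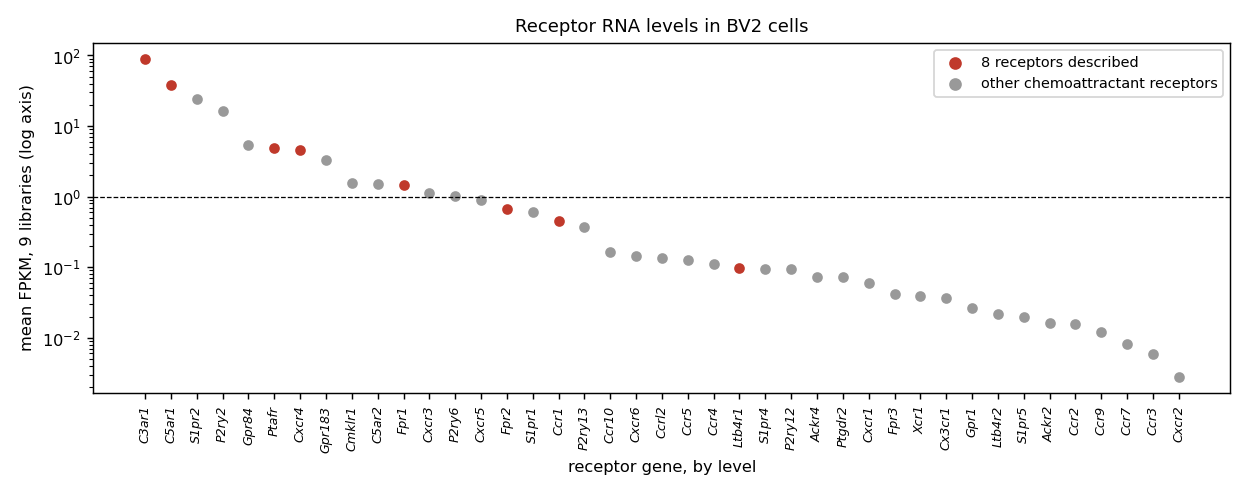
Mean FPKM over the 9 libraries (vertical axis, log scale) of the 8 receptors described (red) and of the other chemoattractant receptors above 0 (grey), in order of level. The dashed line is the limit of 1 FPKM for testing, with 5 red and 8 grey points above it, and C3ar1 and C5ar1 are highest.

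The ligands of these receptors and the enzymes that make or remove them formed a list of 27 genes, of which 17 were tested. At 100 µg/ml against control 2 fell and none rose, which is 11.8% beside 2.11% of all genes, with a median log2 change of -0.12, and none passed in the other comparisons. The genes that fell were Saa3 and Anxa1, of the serum amyloid A and annexin families, which hold known ligands of Fpr2. Saa3, a serum amyloid A of macrophages, was at 387, 354 and 330 FPKM in control cells, 328, 302 and 365 FPKM at 10 µg/ml, and 269, 200 and 216 FPKM at 100 µg/ml, with the libraries at 100 µg/ml below the other 6 and a log2 change of -0.65 against control (adjusted p = 0.0285). Anxa1, the annexin that binds formyl peptide receptors, was at 118, 120 and 128 FPKM in control cells, 96.2, 96.8 and 109 FPKM at 10 µg/ml, and 93.5, 97.2 and 97.4 FPKM at 100 µg/ml. Every treated library lay below every control library for Anxa1, and its log2 change was -0.34 at 100 µg/ml against control (adjusted p = 0.0285). The most abundant gene of the list was Mif, a cytokine that binds Cxcr4, with 452.5 FPKM in control cells and 452.3 FPKM at 100 µg/ml (adjusted p = 0.977).

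The genes that couple the receptors and relay their signal (28 genes, 25 tested) had no call in any comparison, with a median log2 change of -0.10 at 100 µg/ml against control. By unadjusted limma p under 0.05, 5 of the 25 were counted there (19.4% of all genes). The most abundant were the G protein beta subunits Gnb1, at 259 FPKM in control cells and 272 FPKM at 100 µg/ml, and Gnb2, at a mean of 176 FPKM over the 9 libraries. Among the 15 genes that shut receptors off, 12 were tested and none passed in any comparison, with a median of -0.06 at 100 µg/ml against control and 4 of them counted by unadjusted limma p. Between the doses that count was 6 of these 12 and 5 of the 25 coupling and relay genes, beside 14.3% of all genes. The most abundant of these were the arrestin Arrb2, at 90.4 FPKM in control cells and 79.0 FPKM at 100 µg/ml, and the receptor kinase Adrbk1, at 64.7 and 59.9 FPKM.

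The list for the phagocyte NADPH oxidase, which these receptors prime, held 4 genes, and all were tested. At 100 µg/ml against control 2 fell and none rose, beside 2.11% of all genes called, with a median of -0.26, and 1 fell between the doses. Cybb, the catalytic membrane subunit, was at 208, 228 and 214 FPKM in control cells, 181, 202 and 198 FPKM at 10 µg/ml, and 97.7, 148 and 137 FPKM at 100 µg/ml. The libraries at 100 µg/ml lay below the other 6, and the log2 change was -0.78 against control (adjusted p = 0.0257) and -0.62 against 10 µg/ml (adjusted p = 0.0863). Ncf1, a cytosolic subunit that organizes the complex, was at 68.0, 70.0 and 71.8 FPKM in control cells, 74.0, 69.2 and 70.7 FPKM at 10 µg/ml, and 60.2, 59.1 and 57.8 FPKM at 100 µg/ml. It was lowest in the 3 libraries at 100 µg/ml, with a log2 change of -0.24 against control (adjusted p = 0.0387) and -0.27 against 10 µg/ml (adjusted p = 0.0459). Over the 5 lists together, 5 of the 66 tested genes passed at 100 µg/ml against control, all lower, which is 7.58% beside 2.11% of all genes, and 2 passed between the doses, both lower, 3.03% beside 0.851% in either direction and 0.636% lower. None passed at 10 µg/ml against control. When each of the 9 libraries was left out in turn, each of these calls held in 1 to 4 fits. All 5 calls against control were lost without control library 2, where their adjusted p-values ran from 0.105 (Anxa1) to 0.146 (Ncf1). Both calls between the doses were lost without library 1 of 10 µg/ml (Gpr183 0.146, Ncf1 0.182). A fit of only the 6 libraries compared called no gene of the 5 lists in either comparison. A block for replicate number left 3 list genes called at 100 µg/ml against control and 0 between the doses.

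**Figure D5:**
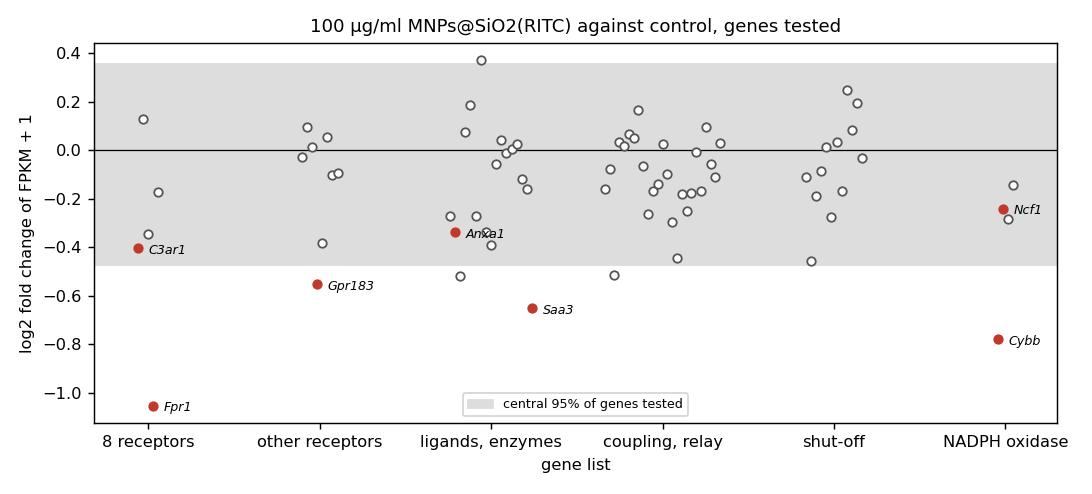
Log2 fold change of FPKM + 1 at 100 µg/ml MNPs@SiO2(RITC) against control (vertical axis) for every tested gene of the 8 receptors and of the 5 lists (horizontal axis). Filled red points with a name have an adjusted p under 0.05 in limma, open points do not, and the grey band holds the central 95% of all 11161 genes tested. All 7 filled points lie below 0.

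Patterns across the libraries were compared by Pearson r of log2(FPKM + 1) over the 9 libraries. These points share 3 groups, depth and normalization, so r describes a likeness of pattern. Most like Fpr1 were Sh3bgrl2 (r = 0.987), Spata13 (0.981), Lrrc20 (0.979), Mov10 (0.978) and Ssr3 (0.977), all with their lowest mean at 100 µg/ml. Lrrc20 had means of 10.04, 9.21 and 5.63 FPKM in control cells, at 10 µg/ml and at 100 µg/ml. Most like Cxcr4 were Asah1 (r = 0.969), Esf1 (0.933), Rpl11 (0.925), Rsrp1 (0.922) and Lyrm5 (0.918). Rpl11, a ribosomal protein gene, had means of 56.1, 40.3 and 39.3 FPKM in these groups. Most like C5ar1 were Gm5422 (r = 0.928), Hbegf (0.919), Rnf219 (0.912), Fbxo21 (0.908) and Pif1 (0.908), which were highest on average at 100 µg/ml.

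The labelled cell type was checked with marker genes. Of 14 markers of macrophages and microglia, 11 were at or above a mean of 1 FPKM, led by the lysosomal protein Cd68 at 413 FPKM and by Tyrobp, an adaptor of myeloid receptors, at 246 FPKM. Markers of resident microglia near 0 were Sall1 at 0.00137 FPKM, Cx3cr1 at 0.0367 FPKM and P2ry12 at 0.0934 FPKM, while Tmem119 was at 2.15 FPKM. The sum of the 14 markers was 1795, 1721 and 1574 FPKM in control cells, 1597, 1558 and 1667 FPKM at 10 µg/ml, and 1633, 1429 and 1418 FPKM at 100 µg/ml, so the groups overlapped. At 100 µg/ml against control 1 of the 11 tested markers fell and none rose, which is 9.09% beside 2.11% of all genes tested, with a median log2 change of -0.20. All 11 had a log2 change below 0, where 50.4% of all genes did. The marker that fell was Emr1, which encodes the macrophage marker F4/80, at 199, 208 and 200 FPKM in control cells and 117, 133 and 132 FPKM at 100 µg/ml. Its libraries at 10 µg/ml, at 189 to 193 FPKM, lay between these groups. The log2 change of Emr1 at 100 µg/ml against control was -0.67 (adjusted p = 0.00224) and against 10 µg/ml -0.59 (adjusted p = 0.00598). Emr1 passed whichever library was left out. The part of these marker changes in the falls of Fpr1 and C3ar1 was not tested.

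Markers of other cells that carry such receptors or that a brain culture could hold lay below a mean of 1 FPKM over the 9 libraries, except S100a8 and Kdr. Of 8 neutrophil markers, S100a8 was highest at 20.1 FPKM, the others together reached at most 0.827 FPKM in a library, and S100a9, Ltf and Ly6g were listed at 0. S100a8 was at 32.6 FPKM in control library 1 and between 15.5 and 22.7 FPKM in the other 8 libraries. Of 5 endothelial markers Kdr was at 67.9 FPKM, the others together reached at most 0.357 FPKM in a library, and Cldn5 was listed at 0. S100a8 and Kdr were the only tested genes of these lists, and neither passed in any of the 3 comparisons. The other lists had no tested gene. Of 6 neuronal markers 5 were listed at 0 and the highest, Slc17a7, was at 0.00552 FPKM, and of 6 lymphocyte markers 5 were listed at 0 and the highest, Ms4a1, was at 0.00432 FPKM. Of 6 astrocyte markers the highest was Gfap at 0.257 FPKM with Aqp4 and Gjb6 at 0, and of 5 oligodendrocyte markers it was Mbp at 0.0528 FPKM with Cldn11, Mobp and Mog at 0.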

How the data were processed

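The 9 RNA libraries of BV2 cells form 3 groups of 3, as the sample labels define them. Per the labels and the methods, polyA RNA was selected on oligo(dT) beads and a stranded kit was used. The authors aligned the reads with TopHat and ran Cufflinks 2.1.1 with the genes of Ensembl release 77 (GRCm38) to obtain the deposited FPKM, and their processing notes also name Cuffdiff. The strand setting of that counting was not given in the sources used here. FPKM has length and depth divided out, so no count test was possible, and a gene's value can move with the shares that other genes take. The 9 libraries all listed 22045 genes at 0. A 0 can also be a failed estimate, because 9 genes had over 1000 FPKM in part of the libraries and 0 elsewhere. No 2 libraries were identical.

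Log2(FPKM + 1) of the 11161 genes whose mean reached 1 FPKM was fitted with limma 3.58.1 (R 4.3.3), the 3 groups in one fit, eBayes with trend, and Benjamini-Hochberg adjustment over all genes tested. The procedure was tested on simulated data. Python 3.11.15, pandas 2.3.3, numpy 2.4.6 and matplotlib 3.10.9 were used otherwise. Depth was estimated from 3635 genes with 1 annotated transcript of more than 1500 nt, where 76.2 to 85.6% of low values per library lay within 0.25 of a whole fragment (50% by chance). Coordinates are those of the deposited table, and transcripts and exons are from GENCODE M21, where 40036 genes matched by identifier. Upstream sequences are from RefSeq (GRCm38.p6), where all 8 receptors matched.

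The receptors, the 5 pathway lists (other chemoattractant receptors, ligands and enzymes, coupling and relay, shut-off, NADPH oxidase) and the 7 marker lists (macrophage and microglia, neutrophil, neuron, astrocyte, oligodendrocyte, lymphocyte, endothelial) were chosen with earlier results of these data known. Named are all 8 receptors, list genes with an adjusted p under 0.05 in any comparison, the 2 most abundant genes of each pathway list, the 2 highest genes of each marker list and those at 0, the 5 genes most like Fpr1, Cxcr4 and C5ar1, and the neighbours and family of Fpr1, though not every gene this covers is printed. Emr1 and the markers of resident microglia were named after their values were seen, and 2 genes of the marker lists are not reported here. Alternatives were a pseudocount of 0.1, no filter, a filter at 5 FPKM, median-of-ratios rescaling, only the 6 libraries compared, eBayes without trend, a replicate block and leaving out each library. No filter together with a pseudocount of 0.1 was chosen after seeing the data. Cyba and Ric8a, Cuffdiff and RT-qPCR were not analysed here.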

Additional observations from a re-analysis of the deposited data

How the results depend on the processing

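Of 246 fold changes of single receptors recomputed under the alternatives, 231 kept their direction and their side of the threshold. The log2 change at 100 µg/ml against control kept its direction under every alternative for all 5 receptors tested, and passed the threshold in 14 of 16 alternatives for Fpr1 (-1.87 to -0.95) and 14 of 17 for C3ar1 (-0.44 to -0.35). With only the 6 libraries compared the limma adjusted p was 0.0561 for Fpr1 and 0.0760 for C3ar1. Directions turned only in changes that had not passed. At 10 µg/ml against control, leaving out a library gave -0.0079 (without 10 µg/ml library 2) to 0.15 for C5ar1 and -0.054 to 0.051 (without control library 3) for Ptafr, which was also positive without 10 µg/ml library 2 (0.02). Between the doses it gave -0.017 (without 10 µg/ml library 1) to 0.14 for C5ar1 and -0.074 to 0.044 (without 100 µg/ml library 3) for Cxcr4, which was also positive without 10 µg/ml library 3 (0.02) and 100 µg/ml library 2 (0.01).

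At 100 µg/ml against control, 236 genes passed, 22 with only the 6 libraries and 31 (without control library 2) to 539 (without 100 µg/ml library 1) when a library was left out. Receptors called were 2, but 1 with a filter at 5 FPKM (which leaves Fpr1 out), 0 with only the 6 libraries and 0 to 3 when a library was left out. Genes called in the pathway lists were 5, but 3 with no filter, 3 with no filter and a pseudocount of 0.1, 0 with only the 6 libraries and 0 to 6 when a library was left out. At 10 µg/ml against control 0 genes passed, but 4 with no filter, 5 with no filter and a pseudocount of 0.1, 1 with only the 6 libraries and 0 to 2 when a library was left out. No receptor and no list gene passed there under any of these alternatives, a range of 0 to 0. Between the doses 95 genes passed, 6 with only the 6 libraries and 8 (without 10 µg/ml library 1) to 191 (without 100 µg/ml library 1) when a library was left out. Receptors called were 0, but 1 without trend (Fpr1, adjusted p = 0.0418) and 0 to 1 when a library was left out. List genes called were 2, but 1 with no filter, with a filter at 5 FPKM and without trend, 0 with only the 6 libraries and 0 to 4 when a library was left out. Fewer libraries leave less to estimate the spread. Otherwise the cause was not tested. The filter at 5 FPKM gives no value for Fpr1, Ptafr and Cxcr4.

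Over all comparisons, r of deviations was -0.088 to 0.152 over 9 same-numbered pairs of libraries, against -0.166 to 0.143 over 18 pairs of other numbers. Between control and 100 µg/ml, the same-numbered pairs had r of 0.152, 0.033 and 0.098, and pairs of other numbers -0.166 to 0.105. Same-numbered pairs with a low-dose library had r of -0.088 to 0.074. With 3 libraries per group, these values cannot decide whether the numbers pair the samples. With the replicate block, 106 genes and 3 list genes passed at 100 µg/ml against control, and 13 genes and 0 list genes between the doses. The block changed no call of a receptor, with adjusted p = 0.0452 for Fpr1 and 0.0463 for C3ar1. Fpr2, Ccr1 and Ltb4r1 had group means of at most 22.8 estimated fragments per library, so depth limits what can be compared for them.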
